A study of Mus musculus with 6 samples.

Results

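The Sall and Zic families of zinc-finger transcription factors were read in reprogrammable cells with and without RNF20, an E3 ligase that places ubiquitin on histone H2B. The 8 genes Sall1, Sall2, Sall3, Sall4, Zic1, Zic2, Zic4 and Zic5 were taken by symbol from the 16982 genes of the count table. All 8 had a row there, and 6 passed the filter on low counts, while Sall3 and Sall4 did not. RNA-seq was performed on 3 WT and 3 Rnf20 knockout (KO) cultures of C57BL/6 mouse embryonic fibroblasts at day 3 after retroviral delivery of OCT4, SOX2, KLF4 and C-MYC (OSKM), which all 6 cultures carried. KO cells came from embryos with floxed Rnf20 and a ubiquitous Cre that 4-OH tamoxifen activates. The labels list all cultures as untreated, and whether WT cells received the drug is not given in the sources used here. Infected fibroblasts were replated on mitomycin-treated fibroblast feeders, and whether feeder RNA is part of these libraries is not given either. Replicates are separate samples by their labels, without a statement of separate embryos, so the tests measure only the spread between these samples.

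SALL proteins are nuclear factors with C2H2 zinc fingers that recruit the NuRD deacetylase complex through a short N-terminal motif. Some of them bind AT-rich DNA. Sall4 is a core factor of the pluripotent state, Sall1 is needed for kidney formation and is also active in embryonic stem cells, and Sall2 is the most divergent member of the family. ZIC proteins carry a finger array related to that of the GLI factors, the effectors of Hedgehog signalling, and act in the neural tube, neural crest and somites. Zic1 and Zic4 lie head to head on one chromosome, and so do Zic2 and Zic5 on another.

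Sequences are shown for Sall1, which had the largest difference between genotypes among the 8 genes, and for the neighbours Zic1 and Zic4. The study measured Sall1 by RT-qPCR with the following primer pair, printed 5′ to 3′.
Sall1 forward: acgtgtggtaaaaccttctc
Sall1 reverse: gacaggattgcctcctag
Among the GENCODE M21 transcripts of GRCm38 the pair matched Sall1 alone, with the forward primer in exon 3 and the reverse primer in exon 4 of 4, both in coding sequence. The product of 222 bases spans chr8:89028720-89030066 on the minus strand. The next lines give the 250 bases before RefSeq start sites in GRCm38.p6, read along the strand of the gene, with each CG dinucleotide in capitals.
Sall1, chr8:89044163-89044412, minus strand: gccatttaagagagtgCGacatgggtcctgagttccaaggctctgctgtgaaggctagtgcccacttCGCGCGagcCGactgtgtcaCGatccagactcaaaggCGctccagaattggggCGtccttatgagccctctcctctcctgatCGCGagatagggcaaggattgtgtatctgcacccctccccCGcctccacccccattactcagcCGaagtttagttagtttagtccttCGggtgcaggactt
Zic1, chr9:91365769-91366018, minus strand: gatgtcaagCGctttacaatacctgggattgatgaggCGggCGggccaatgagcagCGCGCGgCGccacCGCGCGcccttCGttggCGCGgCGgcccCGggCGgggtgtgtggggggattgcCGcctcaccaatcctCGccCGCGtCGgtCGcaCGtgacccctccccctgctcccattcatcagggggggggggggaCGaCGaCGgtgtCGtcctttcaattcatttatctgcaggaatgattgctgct
Zic4, chr9:91368722-91368971, plus strand: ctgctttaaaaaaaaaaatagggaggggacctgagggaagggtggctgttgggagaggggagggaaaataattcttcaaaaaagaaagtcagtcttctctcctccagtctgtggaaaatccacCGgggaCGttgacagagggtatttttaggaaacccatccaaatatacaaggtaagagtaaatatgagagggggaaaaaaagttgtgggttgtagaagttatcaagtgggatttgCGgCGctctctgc
The Sall1 window held 13 CG dinucleotides, the Zic1 window 27 and the Zic4 window 4, against a median of 6 over 32851 promoter windows of the same length. At least as many were found in 31.5%, 8.56% and 62.2% of these windows, respectively. For Sall1 2 further RefSeq start sites are listed, with 25 and 30 CG dinucleotides in their windows. The Zic4 window lies inside the GENCODE M21 span of Zic4, downstream of its start there at chr9:91362413. Its count therefore does not describe the sequence before the GENCODE start. RefSeq windows were matched for 5 of the 8 genes, 8 windows in all. The SOX core motifs ACAATG and ACAAAG and the POU octamer ATGCAAAT, searched on both strands, were found in none of the 8, against 10.7%, 16.5% and 1.60% of all windows.

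Library totals lay between 20545442 and 21746898 counts. Levels are given as CPM, counts scaled to the library total and normalized here by TMM, and a floor of 3 counts corresponds to 0.142 to 0.143 CPM. Rnf20 was at 106 to 107 CPM in WT and at 16.4 to 18.7 CPM in KO libraries. KO replicate 3 stood apart from the other KO libraries, with a chi-square statistic per gene of 92.4 and 101 against them, where all other replicate pairs lay between 6.04 and 8.92. The Y-linked gene Ddx3y was at 0 in KO replicates 1 and 3 and between 94.4 and 127 CPM in the other 4 libraries. All WT libraries were thus Y-positive, and Y status and genotype were partly confounded. The part of Y status in the values of the Sall and Zic genes was not tested. Of the markers of fibroblasts, the labelled starting cells, all 12 had rows, with a summed level of 31264 to 33955 CPM in WT and 22216 to 40874 CPM in KO libraries. This sum was lowest in KO replicate 3, and Col1a1, Col1a2, Col3a1, Fn1 and Vim made up most of it. In KO replicates 1 to 3 Pdgfra was at 97.7, 108 and 49.8 CPM, against 181 to 222 CPM in WT. Thy1 was at 78.4 to 88.8 against 157 to 192 CPM and Lum at 21.3 to 102 against 134 to 162 CPM. Fn1 (4045 to 6975 against 3456 to 4033 CPM) and Vim (3447 to 3653 against 2655 to 3057 CPM) were higher in KO libraries. The groups overlapped for the other markers. All 8 macrophage markers had rows, and their sum was 51.0 to 108 CPM in WT, 87.0 and 56.4 CPM in KO replicates 1 and 2 and 245 CPM in KO replicate 3. The sum of the 6 endothelial markers was 55.3 to 68.8 CPM in WT and 48.0 to 75.1 CPM in KO libraries. Over these libraries Tek, at 30.7 to 64.5 CPM, and Flt1, at 7.08 to 15.7 CPM, made up most of it. KO replicate 3 had the lowest Tek and the highest Flt1. Pecam1 and Cdh5 were at or below 0.525 CPM in each library. The 5 keratinocyte markers summed to 7.69 to 10.2 CPM in WT and 4.0 to 11.1 CPM in KO libraries, and the 2 skeletal muscle markers with a row of 6 to at most 0.0954 CPM.

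In WT cells Sall2 and Zic1 were the most abundant of these genes and Sall4 was all but unread. Per length, the deposited FPKM of Sall2 was 9.62 ± 0.417, that of Zic1 7.60 ± 1.72, that of Zic2 3.46 ± 0.573 and that of Sall1 2.57 ± 0.151 (mean ± SD, n = 3). Zic4 followed at 0.734 ± 0.356 FPKM and Zic5 at 0.669 ± 0.0202 FPKM. The WT libraries of Sall2 and Zic1 overlapped, as did those of Zic4 and Zic5, whereas those of Zic2 and Sall1 did not. From the counts, scaled here by gene length and library total, instead, Sall2 at 9.94 ± 0.613 and Zic1 at 4.22 ± 0.869 did not overlap and Zic2 and Sall1 did, at 2.77 ± 0.548 and 2.59 ± 0.132. In KO cells the order by FPKM was Zic1 at 6.94 ± 1.85, Sall2 at 6.28 ± 1.16, Zic2 at 2.70 ± 0.650, Zic4 at 0.896 ± 0.944, Sall1 at 0.721 ± 0.498 and Zic5 at 0.491 ± 0.0182. Zic1 and Sall2 overlapped there, and so did the last 3 genes. From the scaled counts Sall2 was instead the highest in KO cells, at 6.61 ± 1.24, above Zic1 at 4.05 ± 1.11 without overlap. Zic2 was at 2.14 ± 0.621, and Sall1 at 0.741 ± 0.510, Zic4 at 0.411 ± 0.276 and Zic5 at 0.309 ± 0.0391 overlapped on this scale too.

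The question was how these genes differed between genotypes. In the edgeR fit used here Sall1 and Sall2 were lower in KO cells at an adjusted p under 0.05. None of the 6 genes tested met the rule of the study in that fit. The rule asks for an adjusted p under 0.01, a change of over 2-fold and, as read here, a mean FPKM over 1 in either genotype. The quasi-likelihood F-test of edgeR was used with Benjamini-Hochberg adjustment over 13386 genes. By the rule 0 of 6 were called lower, where 2.08% of all genes were, and 0 were called higher, where 1.5% were. Zic4 and Zic5 had a mean FPKM under 1 in both genotypes, so neither could have been called. At an adjusted p under 0.05, 2 of 6 were lower against 16.6% of all genes and 0 were higher against 16.4%, so 2 of 6 passed in either direction against 33% of all genes. At an adjusted p under 0.01, 0 of 6 passed against 9.88%. The unadjusted p was under 0.05 for 3 of the 6 in this edgeR fit, against 45.6% of all genes, and DESeq2 called 1 lower, Sall1, against 3.81% of all genes. Of the log2 fold changes 5 were negative and 1 positive, where 50% of all genes were negative, and their median was -0.48 against -0.00032 over all genes. The 3 KO libraries all lay below the 3 WT libraries in CPM for Sall1, Sall2 and Zic5, an arrangement shown by 28.2% of all genes. In bulk RNA fewer cells that express a gene and less RNA per cell cannot be told apart.

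**Figure D1:**
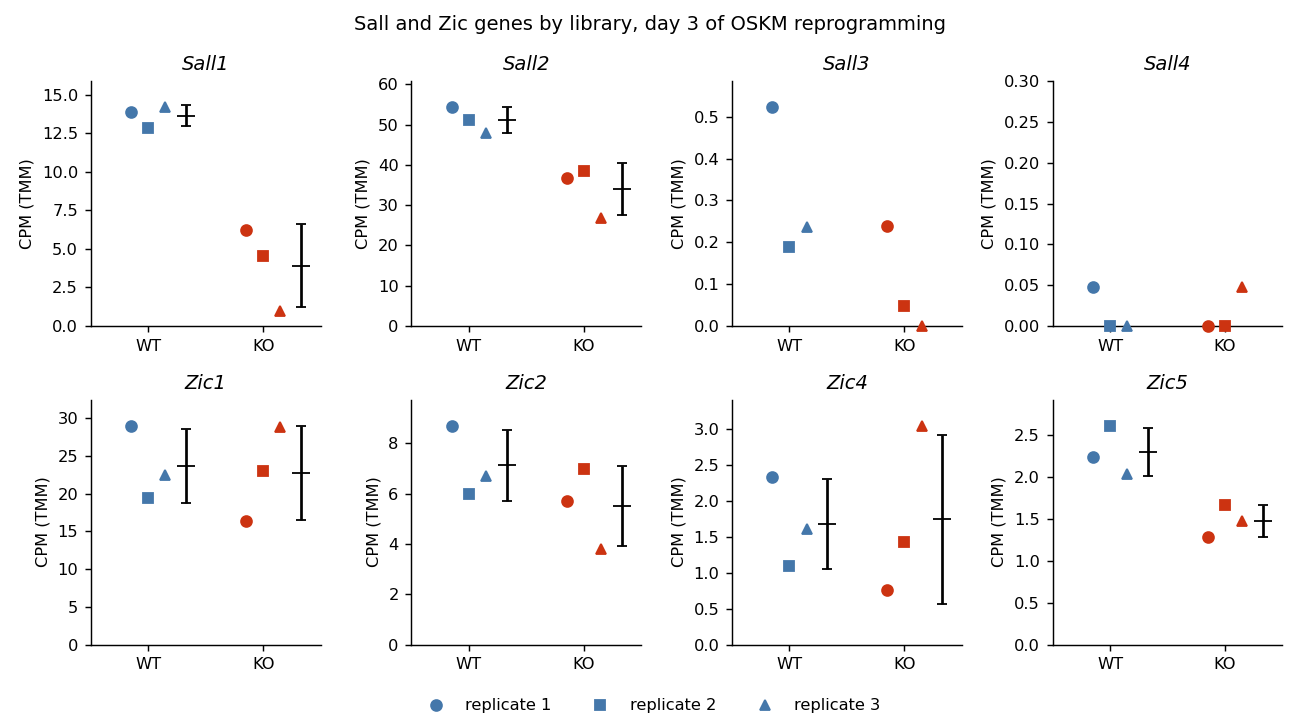
TMM-normalized CPM (y axis, from 0, with a scale of its own for each gene) of the 8 genes in WT (blue) and KO (red) libraries, with the mean and SD in black for the 6 genes tested. The KO points of Sall1, Sall2 and Zic5 lie below all WT points, and those of Zic1, Zic2 and Zic4 overlap them.

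Sall1 (ENSMUSG00000031665, chr8:89027235-89044162, minus strand) was read with 292, 271 and 299 counts in WT replicates 1 to 3 and with 130, 96 and 20 in KO replicates 1 to 3. These are 13.9, 12.9 and 14.2 CPM in WT and 6.20, 4.56 and 0.952 CPM in KO cells. The groups did not overlap, and the KO libraries spread far more widely than the WT libraries, with KO replicate 3 the lowest. The KO mean of 3.90 ± 2.69 CPM was 28.6% of the WT mean of 13.6 ± 0.694 CPM, and KO replicate 3 alone reached 6.98% of it. The log2 fold change was -1.80 (standard error, SE, 0.542, 95% interval -3.09 to -0.51, edgeR adjusted p = 0.0433). The study reported Sall1 as downregulated in KO cells from these samples, so its RNA-seq level here is not independent evidence of a direction. It also reported RT-qPCR of Sall1 at day 3 (n = 3 independent experiments) as bearing out its RNA-seq results. Without KO replicate 3 the log2 fold change was -1.34 and the adjusted p from edgeR 7.33e-05, and the gene was then called lower, as were 3.63% of all genes in that fit. Without KO replicate 2, or without WT replicate 1, 2 or 3, the adjusted p from edgeR was 0.0813, 0.113, 0.113 or 0.126. Of the 8 macrophage markers 6 were highest in KO replicate 3, among them Lyz2 at 158 CPM and Adgre1 at 31.9 CPM, against at most 58.0 and 4.27 CPM in the other 5 libraries. Mrc1 was lowest there, at 1.90 CPM against 5.80 to 17.7 CPM, and Cd68 at 8.56 CPM lay below WT replicate 2. Their part in the Sall1 value was not tested. Among the Y-positive libraries alone, KO replicate 2 was at 4.56 CPM against 12.9 to 14.2 CPM in WT, a comparison that rests on that KO library alone. RefSeq places the non-coding gene Gm3134 over 2920 bases of the span of Sall1, and Gm3134 had no row in the count table.

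Sall2 (ENSMUSG00000049532, chr14:52311172-52328762, minus strand) was read at 54.3, 51.2 and 48.0 CPM in WT replicates 1 to 3 and at 36.9, 38.5 and 26.7 CPM in KO replicates 1 to 3. The groups did not overlap, and KO replicate 3 was again the lowest. The KO mean of 34.0 ± 6.37 CPM was 66.5% of the WT mean of 51.2 ± 3.16 CPM (n = 3 each). The log2 fold change was -0.59 (SE 0.145, 95% interval -0.93 to -0.24, edgeR adjusted p = 0.0244). Without KO replicate 3 it was -0.44 with an adjusted p from edgeR of 0.000797, and without WT replicate 1, 2 or 3 the adjusted p was 0.0857, 0.0811 or 0.0694. Counts of Sall1 as a percentage of those of Sall2 were 25.5, 25.1 and 29.5 in WT and 16.8, 11.8 and 3.56 in KO libraries. Sall1 was lower relative to Sall2 in all 3 KO libraries (difference in the mean log2 ratio -1.58, exact permutation p = 0.1, two-sided, the smallest that 3 against 3 allows).

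Sall3 (ENSMUSG00000024565, chr18:80966376-80986771, minus strand), a factor of cranial nerve development, was read with 11, 4 and 5 counts in WT and 5, 1 and 0 counts in KO libraries, 20 against 6 in all. The groups overlapped, since KO replicate 1 held more counts than WT replicate 2. Without the filter on low counts the log2 fold change was -1.68 and missed the threshold (edgeR adjusted p = 0.264). Sall4 (ENSMUSG00000027547, chr2:168748332-168767943, minus strand) was read with 1 count in WT replicate 1, 1 count in KO replicate 3 and none in the other 4 libraries. All 6 lay under the floor of 3 counts, so a difference in Sall4 was not detectable at this depth.

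Zic5 (ENSMUSG00000041703, chr14:122456795-122465677, minus strand) was at 2.23, 2.61 and 2.04 CPM in WT and at 1.29, 1.66 and 1.48 CPM in KO replicates 1 to 3. The groups did not overlap, and unlike for Sall1 and Sall2 KO replicate 3 lay between the other KO libraries. The log2 fold change was -0.64 (SE 0.243, 95% interval -1.21 to -0.057, edgeR adjusted p = 0.0860), which does not pass. Its mean FPKM was under 1 in both genotypes, so it could not have been called. Zic2 (ENSMUSG00000061524, chr14:122475435-122479852, plus strand), which starts 9758 bases from Zic5 and is needed for forebrain division, was at 8.70, 5.98 and 6.69 CPM in WT and at 5.73, 6.98 and 3.81 CPM in KO libraries. The groups overlapped, with KO replicate 2 above 2 of the WT libraries. The log2 fold change was -0.37 (SE 0.263, edgeR adjusted p = 0.306), and the 95% interval of the fold ran from 0.501 to 1.19. Counts of Zic5 as a percentage of those of Zic2 were 25.7, 43.7 and 30.5 in WT and 22.5, 23.8 and 38.8 in KO libraries, which overlapped (exact permutation p = 0.5, two-sided).

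Zic1 (ENSMUSG00000032368, chr9:91358058-91365810, minus strand), a gene of the cerebellum and dorsal neural tube, was at 29.0, 19.5 and 22.5 CPM in WT and at 16.4, 23.0 and 28.8 CPM in KO replicates 1 to 3. The genotypes covered almost the same span, and KO replicate 3, lowest for Sall1 and Sall2, was the highest KO library here. The log2 fold change was -0.06 (SE 0.234, edgeR adjusted p = 0.867), with a 95% interval of the fold from 0.654 to 1.41. Zic4 (ENSMUSG00000036972, chr9:91362413-91389348, plus strand) was at 2.33, 1.09 and 1.61 CPM in WT and at 0.763, 1.42 and 3.05 CPM in KO libraries. KO libraries were both the lowest and the highest. The log2 fold change was 0.06 (SE 0.541, edgeR adjusted p = 0.941), with a 95% interval of the fold from 0.426 to 2.54, and it was -0.61 without KO replicate 3. Both genes were highest in WT replicate 1 and KO replicate 3 and lowest in KO replicate 1. Counts of Zic4 were 8.03, 5.61 and 7.17% of those of Zic1 in WT and 4.66, 6.20 and 10.6% in KO libraries, with no difference in the mean log2 ratio beyond the spread (-0.027, exact permutation p = 1, two-sided). GENCODE M21 places 60 exon bases of the pair on top of each other on opposite strands, 1.05% of those of Zic1 and 0.581% of those of Zic4. Whether the counting used the strand is not given in the sources used here, so reads there may have been assigned to either gene.

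**Figure D2:**
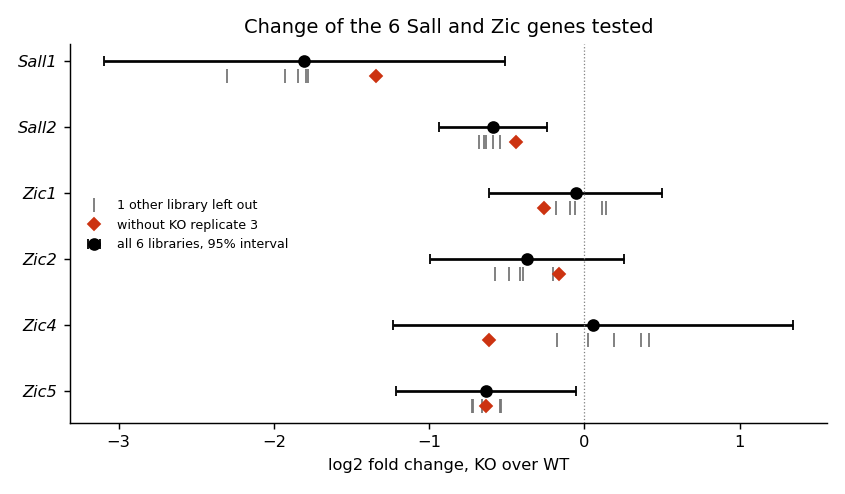
Log2 fold change of KO over WT (x axis) with its 95% interval for the 6 genes tested, from the edgeR fit over all genes, with the values of the fits without 1 library below it (grey ticks, and a red diamond without KO replicate 3). The intervals of Sall1, Sall2 and Zic5 lie below 0, and those of Zic1, Zic2 and Zic4 include it.

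The libraries were then compared gene by gene as deviations of log2 CPM from the WT mean, and the genes with the closest profiles over all 6 libraries were named among 12604 others with a mean CPM over 1. For Sall1 these were Knl1, a kinetochore scaffold, Aspm, a spindle pole protein, and Kif14, a mitotic kinesin, at root mean square differences of 0.0802, 0.114 and 0.131 on the log2 scale. Sall1 lay at -1.12, -1.56 and -3.71 in KO replicates 1 to 3 and Knl1 at -1.11, -1.55 and -3.69. Without KO replicate 3 Knl1, Aspm and Kif14 moved to ranks 21, 67 and 103, and Clspn, Hoxa10 and Ung were the closest genes to Sall1. The closest genes to Sall2 were Mum1l1, Usp37 and Ndc1, at differences of 0.0349, 0.0457 and 0.0460, and without KO replicate 3 they ranked 9, 18 and 20. For Zic1 they were Tspan9, Socs1 and Ndrg2, for Zic2 Tceal3, Egr3 and Fxyd6, for Zic4 D630003M21Rik, Nnat and Rasl11a, and for Zic5 Zbtb25, Dnajc27 and Amigo1. Zic1 was the gene of rank 21 for Zic4, at a difference of 0.340, and rank 32 without KO replicate 3. Zic4 had rank 3623 for Zic1. Zic2 had rank 8259 for Zic1 over 6 libraries and rank 8 without KO replicate 3. These ranks describe 6 libraries that share KO replicate 3 and carry no test.

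**Figure D3:**
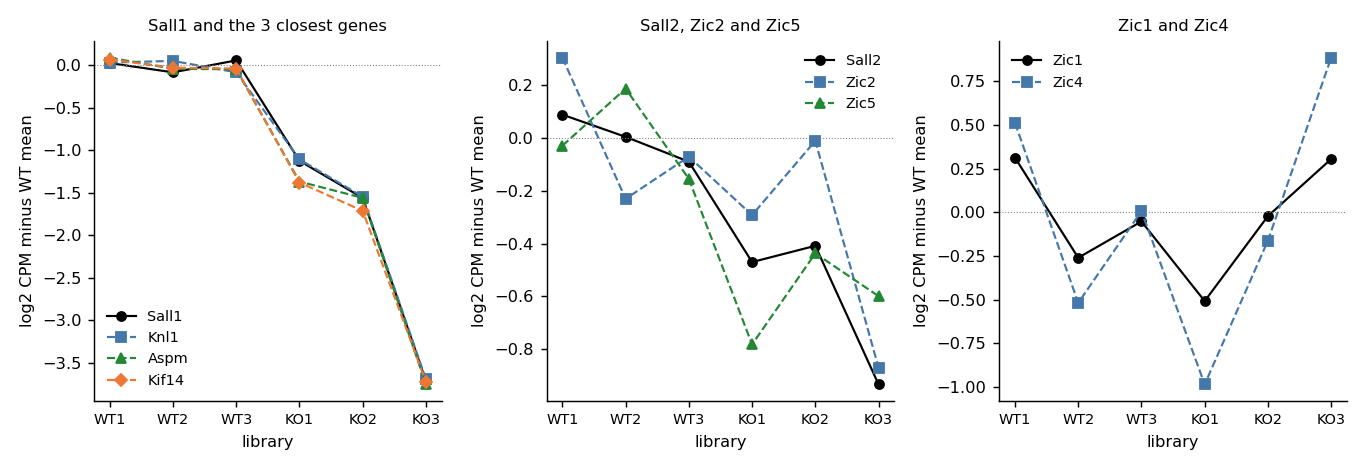
Deviation of log2 CPM from the WT mean (y axis, with a scale of its own in each panel) in the 6 libraries (x axis), for Sall1 with Knl1, Aspm and Kif14, for Sall2, Zic2 and Zic5, and for Zic1 and Zic4, where lines only join the points of a gene. Sall1 reaches -3.71 in KO replicate 3 beside the 3 mitotic genes, while Zic1 and Zic4 lie above 0 there.

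Of the NuRD subunits, the partners of SALL proteins, all 14 were tested. A negative log2 fold change was seen in 12, where 50% of all genes had one. The median was -0.26 (-0.15 without KO replicate 3), against -0.00032 over all genes. In the edgeR fit, 1 was lower at an adjusted p under 0.01, against 4.89% of all genes, and none was higher, against 4.98%. That gene was Mta1, the metastasis-associated subunit, at 192, 190 and 187 CPM in WT and 151, 147 and 153 CPM in KO libraries, with a log2 fold change of -0.33 (SE 0.0599, edgeR adjusted p = 0.0097), a call that was lost with RLE size factors or without the filter on low counts. At an adjusted p under 0.05, 4 were lower, against 16.6% of all genes, among them Mta2 (-0.36), Mta3 (-0.33) and the helicase gene Chd3 (-0.39), and Mbd2, which binds methylated DNA, was higher (0.37), against 16.4% of all genes. The groups did not overlap for 10 subunits that lay lower in KO cells, as 28.2% of all genes did, and 2 that lay higher, as 26.5% did.

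Among GLI and GLIS finger genes and the Hedgehog pathway, relatives of the ZIC factors, Gli1 and Gas1 were lower and the ligand gene Dhh was higher in KO cells. Of 16 genes 15 had a row and 14 were tested, 10 with a negative log2 fold change against 50% of all genes. Their median was -0.22 (-0.16 without KO replicate 3), against -0.00032 over all genes. In the edgeR fit, 2 were lower and 1 was higher at an adjusted p under 0.01, where 4.89% and 4.98% of all genes were. At an adjusted p under 0.05, 4 were lower and 1 was higher, where 16.6% and 16.4% of all genes were. Gli1, an effector and itself a target of the pathway, was at 4.42, 7.78 and 7.35 CPM in WT and 0.620, 1.47 and 0.381 CPM in KO libraries (log2 fold change -2.97, SE 0.496, edgeR adjusted p = 0.0081). Its level was low, and the KO libraries lay below every WT library. Gas1, a co-receptor gene, fell from 307 ± 23.2 to 115 ± 37.9 CPM (log2 fold change -1.41, SE 0.238, edgeR adjusted p = 0.0082). Dhh, the ligand desert hedgehog, was read with 3, 5 and 5 counts in WT and 35, 37 and 28 in KO libraries, a log2 fold change of 2.91 (SE 0.353, edgeR adjusted p = 0.0039) that starts from WT values at the floor. Gli2 (-0.93, edgeR adjusted p = 0.0286) and Hhip (-1.44, edgeR adjusted p = 0.0451) were lower as well. The groups overlapped for Ptch1, which did not pass (-0.88, edgeR adjusted p = 0.0627), and Gli3 was at -0.02 with an edgeR adjusted p of 0.869.

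Of 12 pluripotency genes that work with SALL4, 11 had a row and only 4 passed the filter, 1 negative and 3 positive. Their median was 0.38 (0.46 without KO replicate 3), where 50% of all genes were negative with a median of -0.00032. In the edgeR fit, 0 had an adjusted p under 0.01, against 9.88% of all genes, and 1 had an unadjusted p under 0.05, against 45.6%. DESeq2 gave 0 at an adjusted p under 0.01, against 23.3% of all genes. Tbx3 had 17.8 ± 1.62 CPM in WT and 23.9 ± 2.97 CPM in KO cells (log2 fold change 0.43, edgeR adjusted p = 0.0399). Nanog, a core pluripotency gene, was at 0.903, 2.23 and 0.901 CPM in WT and 0.811, 0.617 and 0.285 CPM in KO libraries (log2 fold change -1.23, edgeR adjusted p = 0.125). The 7 genes left out for low counts reached at most 0.19 CPM in any library, and Sall4 itself was no higher.

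Of 13 neural crest and dorsal neural tube factors, 10 had a row and 8 were tested, 4 negative and 4 positive. Their median was -0.31 (-0.24 without KO replicate 3), where 50% of all genes were negative with a median of -0.00032. In the edgeR fit, 0 had an adjusted p under 0.01, against 9.88% of all genes, and 4 had an unadjusted p under 0.05, against 45.6%. DESeq2 gave 1 at an adjusted p under 0.01, against 23.3% of all genes. At an adjusted p under 0.05 Tfap2b and Tfap2a, AP-2 factors of the neural crest, were lower, 2 of 8 genes against 16.6% of all genes. Tfap2b was at 28.2, 21.9 and 23.4 CPM in WT and 3.82, 3.23 and 0.0476 CPM in KO libraries (log2 fold change -3.37, edgeR adjusted p = 0.0193), lowest in KO replicate 3 as Sall1 was. Tfap2a had a log2 fold change of -1.03 (edgeR adjusted p = 0.0236). The 6 Schwann or neural crest markers summed to 14.0 to 15.2 CPM in WT and 14.1 to 25.8 CPM in KO libraries, and Sox10 was at 2.04 to 2.32 and 2.52 to 6.12 CPM. Of the neural progenitor markers Nes made up most of the sum of 184 to 212 CPM in WT and 290 to 355 CPM in KO libraries, while Pax6 and Sox3 were at or below 0.143 CPM in all 6. The 5 neuron markers with a row of 6 summed to 142 to 150 CPM in WT and 62.7 to 125 CPM in KO libraries, lowest in KO replicate 3. Stmn2, at 107 to 114 CPM in WT, and Map2, at 33.2 to 35.5 CPM, made up nearly all of this sum. Elavl3, Elavl4 and Snap25 were at or below 0.996 CPM in all 6 libraries, and Snap25 was higher in KO than in WT libraries. The part of cells with these markers in the values of the Zic genes was not tested.

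All 17 limb and body wall factors, of tissues in which Sall genes act, were tested, 11 negative and 6 positive. Their median was -0.23 (-0.15 without KO replicate 3), where 50% of all genes were negative with a median of -0.00032. In the edgeR fit, 1 was lower at an adjusted p under 0.01, against 4.89% of all genes. This was Tbx15, which fell from 161 ± 15.2 to 83.6 ± 16.7 CPM (log2 fold change -0.95, SE 0.157, edgeR adjusted p = 0.0079). At an adjusted p under 0.05, 5 were lower and 1 was higher, against 16.6% and 16.4% of all genes, among them the limb genes Tbx5 (-1.64) and Tbx4 (-1.66), which were lower, and Irx3, which was higher (0.88). Prrx1, a mesenchyme gene, was at 0.05 with an adjusted p of 0.714. Every one of the edgeR calls at an adjusted p under 0.01 in these lists was lost without any 1 of the WT libraries or of KO replicates 1 and 2, when none of the 5 lists held a call and between 0.00736% and 1.1% of all genes passed. Without KO replicate 3 there were 5 calls among NuRD subunits, 6 in the Hedgehog list, 4 in the neural crest list and 5 in the limb list, in a fit where 33.2% of all genes passed.

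**Figure D4:**
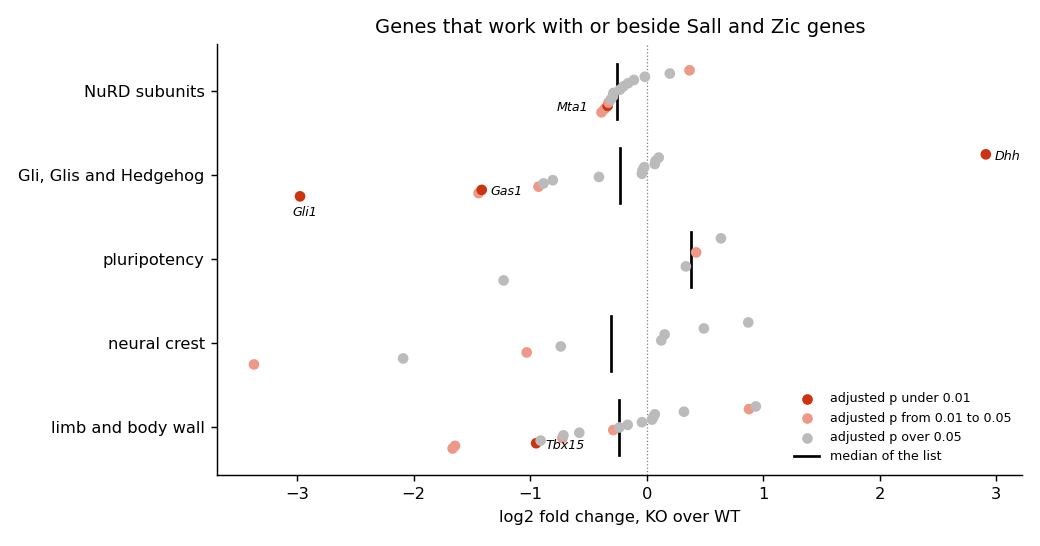
Log2 fold change of KO over WT (x axis) of each tested gene of the 5 lists (rows), coloured by its edgeR adjusted p, with the median of each list as a black line. Gli1, Gas1, Mta1 and Tbx15 lie below 0 and Dhh above it at an adjusted p under 0.01.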

How the data were processed

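RNA-seq of 3 WT and 3 Rnf20 KO cultures was analysed, grouped by the sample labels. Per the submitters' notes and methods, poly(A) stranded libraries were sequenced paired-end and aligned to GRCm38/mm10 with HISAT2 2.1.0. The authors deposited raw counts per gene, whole numbers without normalization. The authors also deposited FPKM values from Cufflinks 2.1.1 for 12633 genes. The counting program and its use of strand are not given in the sources used here. Columns of the authors' own comparison (log2 fold change and FDR) were not used.

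Counts were analysed with R 4.3.3 and edgeR 4.0.16 (TMM, filterByExpr, quasi-likelihood test, Benjamini-Hochberg adjustment over 13386 genes, common dispersion 0.0353). Log2 CPM used a prior count of 2. Floors of 3 counts cover counting error only. Scripts were tested on simulated counts. Alternatives were DESeq2 1.42.0, RLE size factors, library size only, no filter on low counts, a replicate block, limma 3.58.1 on log2(FPKM + 1) and log2(FPKM + 0.1), and each library left out. Named genes were all 8 genes, Rnf20, list members at an adjusted p under 0.01 (otherwise the 2 with the lowest p) and the 3 closest profiles per gene, and other list members were named after their values were seen. The genes and lists were chosen with earlier results of these data known. Sequences came from RefSeq and the study's primer list. One family member and 1 gene of the Hedgehog list are not reported here, and the list's counts leave the latter out.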

Additional observations from a re-analysis of the deposited data

How the results depend on the processing

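With DESeq2 570 genes were called lower and 411 higher over all genes (279 and 201 by edgeR), 1 of the Sall and Zic genes was called lower (Sall1), and the counts at an adjusted p under 0.01 were 2 for NuRD subunits, 1 for neural crest factors, 5 for the Hedgehog list and 5 for limb factors. With RLE size factors or without the filter on low counts the NuRD count was 0, as Mta1 lay close to the threshold. No pairing by replicate number was seen, as the deviations of same-numbered WT and KO libraries from their group means correlated at -0.066, 0.037 and 0.011. KO replicate 3 weighs on the KO mean and so on all KO deviations, and this check therefore cannot exclude pairing. With the replicate number as a block in edgeR's fit, 0 genes were called lower and 0 higher, 1385 were higher and 1490 lower at an adjusted p under 0.05 (2195 and 2218 without it), 1 of the Sall and Zic genes was lower (Sall2, adjusted p = 0.0314, against 0.0602 for Sall1), and the counts at an adjusted p under 0.01 were 0 for NuRD subunits, the Hedgehog list and limb factors. Leaving out each library in turn gave 1 to 491 genes called lower and 0 to 300 called higher, 702 to 3280 lower and 694 to 3230 higher at an adjusted p under 0.05, 0 to 1 of the Sall and Zic genes called lower and 0 to 2 lower at an adjusted p under 0.05. For the lists these fits gave 0 to 5 NuRD subunits, 0 to 6 Hedgehog genes, 0 to 4 neural crest factors and 0 to 5 limb factors. The highest counts were those without KO replicate 3. The cause of these differences was not tested.

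Over 13 alternatives the log2 fold change of Sall1 stayed between -2.30 and -1.10 (adjusted p 7.33e-05 to 0.126 from edgeR, DESeq2 or limma), that of Sall2 between -0.68 and -0.44 (0.000797 to 0.0857), that of Zic2 between -0.57 and -0.16 (0.163 to 0.640) and that of Zic5 between -0.72 and -0.16 (0.0649 to 0.240). Zic1 turned to 0.11 without WT replicate 1 and to 0.14 without KO replicate 1 and without single libraries ran from -0.26 to 0.14 (adjusted p over all alternatives 0.244 to 0.896). Zic4 turned to -0.0060 with library size only, -0.049 with the replicate block, -0.18 without WT replicate 2, -0.61 without KO replicate 3 and -0.066 on log2(FPKM + 0.1) and without single libraries ran from -0.61 to 0.42 (adjusted p 0.259 to 0.995). The smallest changes given for Sall1 (-1.10) and Zic5 (-0.16) were those of limma on log2(FPKM + 1), a different measure. From counts, edgeR and DESeq2 gave -2.30 to -1.34 for Sall1 and -0.72 to -0.54 for Zic5. Depth limits Sall4, which lay under the floor of 3 counts in each library.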
